A study of Mus musculus with 38 samples.

Results

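In mammalian nuclei the lamina, a meshwork of lamin proteins under the inner nuclear membrane (INM), holds part of the genome at the nuclear periphery. Chromatin that touches it forms lamina-associated domains (LADs), which are mostly gene-poor, AT-rich and silent, whereas gene-dense, GC-rich chromatin tends to lie in the interior. Lamin B1 (LMNB1) is a lamin, and LAP2B is an INM protein made from the gene Tmpo. Which genes touch the lamina changes as cells differentiate, and the comparison described here asks which protein-coding genes carried more LMNB1 signal after naive mouse embryonic stem cells (mES cells) were primed.

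The genes described are 2681 protein-coding genes that gained LMNB1 signal on priming, of 78202 genes in the tables. For the choice, the LMNB1 signal of each library was divided by that library's median gene (the relative scale). Of 21687 protein-coding genes, 18041 had a mean relative LMNB1 signal above 1 over the 6 libraries and are called eligible. In 4305 of these, all 3 epiblast-like cell (EpiLC) values lay above all 3 naive values, and in 2686 the ratio of the EpiLC mean to the naive mean was also at least 1.4. The 5 of these with olfactory receptor, vomeronasal receptor or Pramel symbols were dropped, which left the 2681 genes, called members below. Before that drop the rule took 14.9% of the eligible genes. The same rule turned round, for genes losing LMNB1, found 1633. Members were chosen by their measured LMNB1 values in these 6 libraries, so LMNB1 values are given as a description and carry no test.

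Signal was measured by CUT&RUN, which uses an antibody to bring a nuclease to its target and collects the DNA cut free there, from 200000 cells per library. All groups had 3 libraries and were either naive mES cells, kept in 2i medium with LIF, or EpiLCs, made by 48 h of culture with FGF and activin A. LMNB1 and an antibody without a chromatin target as control (IGG) were mapped in wild-type (WT) cells, and LAP2B in WT cells, in cells without the lamin B receptor (LBRKO), in cells without the lamins (TKO) and in cells without both (QKO). Per the study's methods, WT and TKO cells are separate lines, and QKO is 1 clone made from TKO cells. The TKO cells all carried an extra chromosome 8 and some had lost Y, while part of the WT cells had lost Y, some of these with extra copies of 6 and 8. Nothing in the labels says whether libraries of a group came from separate cultures, so p-values measure the spread between libraries and not between clones or lines. Signal over the knocked-out genes is no check of the genotypes, since a gene's chromatin is measured whether or not it makes protein. LAP2B over Lbr, for example, was 5.47 to 8.71 on the relative scale in the 6 LBRKO libraries and 4.30 to 5.67 in the 6 WT libraries. In naive QKO against naive WT it was 28.6 to 52.0 against 4.16 to 9.56 over Lmna. Over Lmnb2 it was 14.3 to 20.7 against 1.82 to 3.63, and over Lmnb1 12.2 to 12.8 against 11.8 to 13.2. In naive TKO, Lmna had 9.66 to 37.8, the highest in replicate 1.

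A gene's value is a sum over the 1 kb bins it touches, so it grows with length, and levels of different genes are compared here only per kb. Whole reads could be recovered from the values. The recovered reads per library were 29522895 to 37189077 for LMNB1, 12608484 to 41198406 for LAP2B and 12028659 to 45689196 for IGG. A member had a median of 235 recovered reads in an LMNB1 library, 400 in a LAP2B library and 399 in an IGG library, and the lowest value for LMNB1 was 20 reads. Members that lie close together can share bins: 662 members shared at least 1 bin with another member, and the 2681 genes covered 2316 distinct sets of bins.

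Members lay in GC-rich, gene-dense chromatin. The median GC content of the gene body was 50.5% in members, 43.6% in the other eligible genes and 41.4% in the genes that lost LMNB1. The median number of protein-coding genes within 500 kb was 25 for members and 13 for the other eligible genes. A member spanned a median of 22.1 kb, against 26.2 kb for the others. In the 250 bases upstream of the gene start, the dinucleotide CG, which reads the same on both strands and is the site of DNA methylation, occurred a median of 9 times in members and 6 times in the other eligible genes. At least 10 occurred in 48.2% of members' windows and in 38% of the windows of all eligible genes. The 250 bases upstream of the 3 members with the highest LMNB1 ratio are given below, shown because these genes lead by ratio and not for their CG content, on the strand of the gene (GRCm39), 5′ to 3′, with each CG in capitals. They hold 0, 5 and 3 CG respectively, fewer than the median of either set of genes, at chr17:46749408-46749657 (Slc22a7), chr5:113938578-113938827 (Tmem119) and chr7:99005077-99005326 (Serpinh1), all on the minus strand.
Slc22a7: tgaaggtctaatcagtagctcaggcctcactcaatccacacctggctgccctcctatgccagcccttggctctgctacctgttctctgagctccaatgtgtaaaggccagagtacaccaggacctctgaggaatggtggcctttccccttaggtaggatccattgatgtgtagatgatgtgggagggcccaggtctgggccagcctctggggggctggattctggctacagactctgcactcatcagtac
Tmem119: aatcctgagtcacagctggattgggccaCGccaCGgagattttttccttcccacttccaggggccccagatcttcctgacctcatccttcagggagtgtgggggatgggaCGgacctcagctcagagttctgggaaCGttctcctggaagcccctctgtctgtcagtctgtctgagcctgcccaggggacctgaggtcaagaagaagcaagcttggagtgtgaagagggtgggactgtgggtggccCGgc
Serpinh1: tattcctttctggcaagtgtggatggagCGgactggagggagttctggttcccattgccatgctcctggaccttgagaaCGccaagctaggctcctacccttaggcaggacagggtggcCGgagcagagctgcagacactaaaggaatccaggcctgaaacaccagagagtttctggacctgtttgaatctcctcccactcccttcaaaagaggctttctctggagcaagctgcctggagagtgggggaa
These windows of the leading genes were thus GC-rich (55.6%, 59.2% and 55.2%) with few CG.

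Members were spread over every chromosome with eligible genes except Y, but not evenly. On chromosomes 4 (302 of 1069 eligible genes), 15 (176 of 623) and 17 (220 of 826) the share of members was 28.3%, 28.3% and 26.6%. It was 1.51% on chromosome X (9 of 595) and 4.77% on chromosome 18 (23 of 482). When members no more than 500 kb apart were joined, they fell into 261 runs, of which 98 held 1 gene, while 72 runs of 10 or more held 2191 members (81.7%). The longest run by number of genes, on chromosome 17 from position 24062829 to 32922640 (GRCm39), held 133 members, or 80.6% of its 165 eligible genes, from Prss32 to Cyp4f15. The next ones were on chromosome 4 (117 members, Ptpru to Dnajc16), chromosome 2 (115 members, Slc34a3 to Mvb12b, with Barhl1) and chromosome 19 (79 members, Ighmbp2 to Otub1, with Cnih2). Among the eligible genes in these 4 runs that were not members, the LMNB1 log2 change was above 0 in 32 of 32, 44 of 44, 24 of 24 and 25 of 25. Over all eligible non-members it was above 0 in 39.8%. The runs were built from members, whose sign is fixed by the rule, and genes between members can share bins with them. The counts thus describe these runs and are no separate evidence of a shared change.

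Around members the LMNB1 change of the eligible non-members fell with distance. These LMNB1 values are the ones that chose the members, so they are given as a description. Non-members failed the rule, so LMNB1 changes below those of members are partly set by the rule. Genes overlapping a member also count some of the same bins, so their values are partly the same signal for every antibody. Over the 345 eligible non-members overlapping a member, the median LMNB1 log2 change was 0.40, and it was 0.33 for 2414 genes up to 100 kb away and 0.12 for 2066 genes at 100 to 500 kb. It was below 0 farther out, at -0.15 for 2872 genes between 500 kb and 2 Mb and at -0.28 for 7661 genes beyond. LAP2B, measured in other libraries, had medians of 0.55, 0.43, 0.16, -0.19 and -0.35 over the same classes, and IGG of 0.15, 0.12, 0.06, -0.05 and -0.11. Median GC content fell in the same order, from 49.4% to 41.7%.

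Members began at the bottom of the LMNB1 range. When the eligible genes were ranked by naive LMNB1 per kb and parted into 4 equal classes, 84.6% of members (2269) were in the lowest class and 5 in the highest. In EpiLCs 46.1% (1236) were still in the lowest class and 92 had reached the highest. The median rank of a member moved from the 11.6th to the 26.9th percentile. The naive level is part of the ratio that chose the members, so this shift is partly set by the rule. Over the eligible genes with coordinates, naive LMNB1 rank and LMNB1 log2 change had a Spearman correlation of -0.81. A low start with a gain was thus not particular to members. The LAP2B ranks, which the rule did not use, moved from a median of the 17.5th to the 48.4th percentile, and the IGG ranks from the 69.1th to the 78.9th. Relative to IGG, members remained poor in LMNB1: the ratio of mean relative LMNB1 to mean relative IGG had a median of 0.429 in naive cells and 0.604 in EpiLCs. It was at or under 1 at both stages in 2657 members and crossed from under to over 1 in 15. Both values are set to the median gene of their own libraries, so a ratio of 1 is not the background level. In the deposited values, which the authors scaled by a yeast spike-in, the median gene of IGG was higher in EpiLC than in naive libraries. The rise of the ratio is thus given for the relative scale only. In the other eligible genes the median of this ratio was 1.14 in naive cells and 0.999 in EpiLCs. A member is thus a gene with more LMNB1 signal in EpiLCs than before, in most cases still below that of the typical gene, and not a gene shown to enter a LAD.

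**Figure D1:**
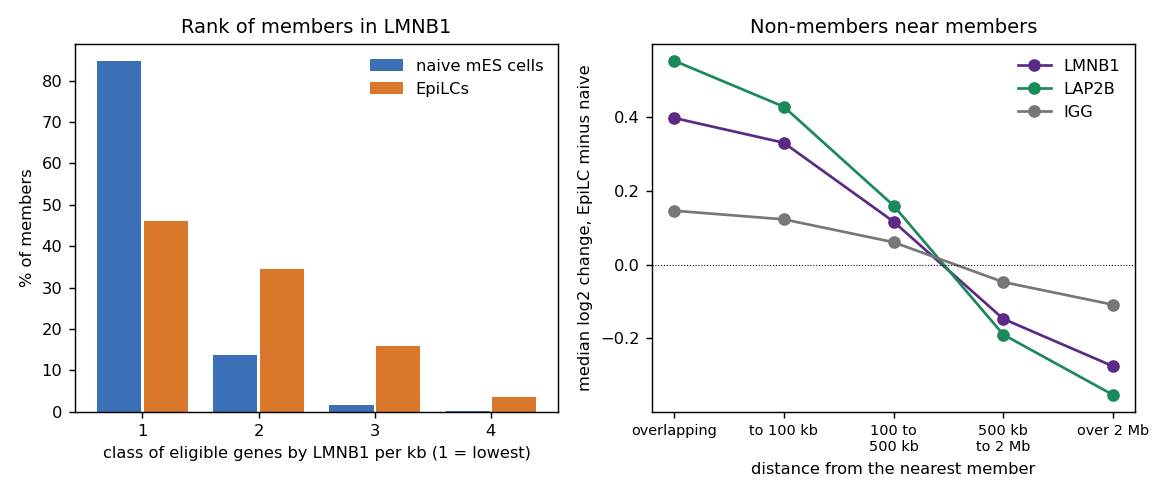
Left, the share of members (%) in each of 4 equal classes of eligible genes ranked by LMNB1 signal per kb, in naive mES cells and in EpiLCs. The bar for the lowest class falls from 84.6% to 46.1%. Right, the median log2 change (EpiLC minus naive, relative scale, WT) of LMNB1, LAP2B and IGG in eligible non-members, by distance from the nearest member. All 3 lines fall with distance and lie below 0 beyond 500 kb.

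The ratio was 1.4 to 3.18 with a median of 1.6, at least 1.6 in 1360 members and at least 2 in 173. Slc22a7, an organic anion transporter of liver and kidney, had the highest ratio. Its relative LMNB1 values were 0.447, 0.5 and 0.558 in the naive libraries and 1.22, 1.5 and 2.07 in the EpiLC libraries. Tmem119, a transmembrane protein used as a microglial marker, had 0.342, 0.409 and 0.961 against 1.75, 1.30 and 1.72. Naive replicate 3 stood well above the other naive libraries there, but still below the lowest EpiLC value. Serpinh1, the collagen chaperone HSP47, had 0.697, 0.875 and 0.714 against 2.18, 1.84 and 2.18, with tighter groups. The other 9 of the 12 highest ratios belonged to Zfr2, Pop5 (a subunit of RNase P), Josd1 (a deubiquitinase), Sppl2b (an intramembrane protease), Barhl1 (a homeobox factor of neurons), Hspa1l, Cnih2, Pcyt2 (phosphatidylethanolamine synthesis) and Tmem54. All 12 were short, at 7 to 20 bins, and rested on 22 to 368 reads per library, so counting error weighs more on these ratios than on those of longer genes.

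**Figure D2:**
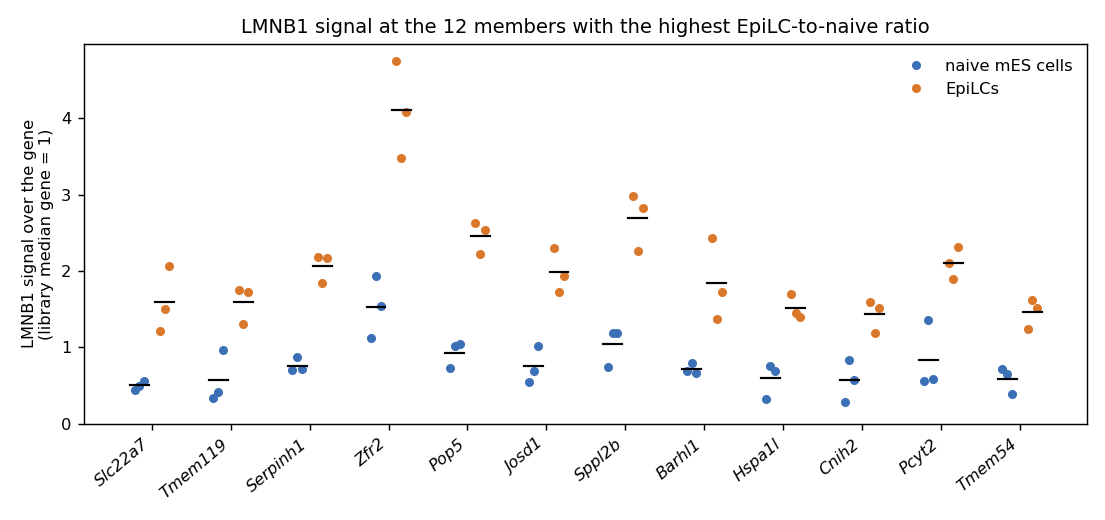
Relative LMNB1 signal over the gene (y axis, library median gene = 1) in the 3 naive and 3 EpiLC WT libraries (points) for the 12 members with the highest ratio, with the mean of each group as a line. The groups do not overlap in any of the 12, as the rule requires; the ratio of the means is 2.51 to 3.18.

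At the other end, the members nearest to the limit were Wnk4, Myo15a and Atp2b2 (ratios 1.40009, 1.40025 and 1.40053), and genes that just missed it were Dph1 and Zfp933 (1.39935 and 1.39907). Genes on either side of the limit thus differed in the fourth digit of the ratio, and 10.6% of the eligible non-members also had EpiLC and naive LMNB1 groups that did not overlap, with EpiLC higher. On the spike-in scale the authors scaled each library by its yeast spike-in. There the median ratio was 1.95 in members and 1.13 in the other eligible genes. The other eligible genes had 0.92 on the relative scale, so a higher ratio on the spike-in scale was not particular to members. Of the 2681 members, 2125 kept groups that did not overlap. That count comes from the libraries that chose the members and has no share of other genes beside it, so it is not read as an excess.

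LAP2B in WT cells, which the rule did not use, rose in most members. The paper reports LAP2B signal both inside and outside LADs in WT EpiLCs, judged against lamin B1. For mutant EpiLCs its authors therefore analysed a histone mark, H3K9me2, and not LAP2B. They describe lamin B1 contacts as mostly unchanged between the stages in WT cells. Whether the LAP2B rise at members reflects contact with the lamina was not tested. Of the 2681, all of which passed the filter on low values, 2333 (87.0%) were higher in EpiLCs and 0 lower on the relative scale at an adjusted p under 0.05 (limma over 70381 genes, Benjamini-Hochberg). The background was 15.1% of all genes tested called higher, and 17.2% of the eligible non-members. At an unadjusted p under 0.05, 1 member was lower, and edgeR on recovered reads called 0 lower. The median log2 change was 0.65 in members, -0.13 in eligible non-members and -0.06 over all genes tested. In 2159 members (80.5%) all EpiLC values lay above all naive values, against 16.7% of all genes tested. On the spike-in scale 1871 members were called higher, with a background of 10.4%, and the median log2 change was 0.82, against 0.09 over all genes tested. That count fell to 400 without EpiLC replicate 3 and to 1006 without naive replicate 1.

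The largest LAP2B rise was at Psmb9, an immunoproteasome subunit in the major histocompatibility region. Its relative LAP2B values were 0.431, 0.455 and 0.654 in naive and 1.77, 2.17 and 2.39 in EpiLC libraries, a log2 change of 1.86 ± 0.25 (SE) on the log2(value + 0.1) scale with an adjusted p of 1.28e-07 (limma). Every EpiLC value was well clear of every naive value. Mex3d, an RNA-binding protein, followed with 1.26, 0.591 and 0.385 against 1.98, 2.60 and 2.64 (log2 change 1.69 ± 0.22, adjusted p = 1.04e-07, limma). Tbxa2r (the thromboxane receptor), Tm7sf2 (a sterol reductase of the INM and endoplasmic reticulum), Efna3 (an ephrin ligand) and Kdelr3 (an endoplasmic reticulum retention receptor) rose by 1.62, 1.59, 1.56 and 1.48 on the log2 scale.

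Of the 12 members with the highest LMNB1 ratio, 11 were called higher in LAP2B. Slc22a7 had 0.597, 0.568 and 1.25 against 2.05, 2.06 and 2.41 (log2 change 1.4 ± 0.21, adjusted p = 9.56e-07, limma). The exception was Josd1, with 1.86, 1.32 and 1.67 against 2.32, 2.45 and 1.66, groups that overlapped (log2 change 0.38 ± 0.18, adjusted p = 0.0998, limma). Over all members, 348 were not called and 21 had a log2 change below 0. In 4 of these, named for that pattern after their values were seen, every EpiLC LAP2B value lay below every naive value although LMNB1 had risen: Rnf26rt, Crygn (a lens crystallin), Rcvrn (recoverin of photoreceptors) and Il36rn (an interleukin receptor antagonist). That is 0.149% of members, where LAP2B groups fell without overlap in 22.7% of all genes tested and 34.4% of eligible non-members. At Rnf26rt, LAP2B was 2.56, 2.73 and 1.69 in naive and 1.63, 1.39 and 1.64 in EpiLC libraries, while LMNB1 was 1.21, 1.39 and 0.805 against 1.66, 1.83 and 2.08. None of the 4 passed the test (log2 changes of -0.53, -0.18, -0.44 and -0.30, adjusted p 0.0967, 0.458, 0.141 and 0.344, limma).

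On the relative scale the IGG control moved the same way, but less. In the deposited spike-in values the median gene of the IGG libraries was 0.411 to 0.622 in naive and 0.718 to 1.92 in EpiLC libraries. Dividing by it removes any rise of the control shared by all genes. The IGG change at members was not taken on the spike-in scale, so whether it was also smaller there was not tested. Its median log2 change was 0.19 in members and -0.02 in the other eligible genes, and it was above 0 in 2432 members (90.7%). In 806 members (30.1%) all EpiLC IGG values lay above all naive values, against 7.39% of all genes tested. In all, 15 members were called higher and 0 lower (limma), with a background of 0.0725%. At an unadjusted p under 0.05, 702 members were higher and 0 lower, and edgeR called 45 or 47 members higher, depending on the scaling, and 0 lower. These counts have no share of all genes beside them, so they are not read as an excess. The 15 became 0, 1, 3 and 6 without EpiLC replicates 1 and 2 and naive replicates 1 and 3, and 44 without naive replicate 2. The 3 largest called rises were at Skor1, Icam5 and Paxx. Skor1, a corepressor of neurons, had IGG values of 1.97, 2.13 and 1.99 in naive and 5.25, 3.86 and 3.67 in EpiLC libraries (log2 change 1.02 ± 0.18, adjusted p = 0.00666, limma), and its LAP2B log2 change was 1.05. At this gene the change in LAP2B was as large as that in the control.

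LAP2B was therefore also compared with IGG, on the relative scale alone, as the difference of the stage changes. This difference had a median log2 of 0.45 in members and -0.08 in eligible non-members, and 408 members (15.2%) were called higher and 0 lower (limma), with a background of 1.43%. At an unadjusted p under 0.05, 1519 members were higher and 3 lower, and edgeR called 0 lower. The unadjusted counts also lack a share of all genes and are not read as an excess. The count of 408 rested on single libraries. It was 62 without WT naive LAP2B replicate 2, 131 and 151 without EpiLC LAP2B replicates 3 and 2, 151 and 181 without EpiLC IGG replicates 2 and 3, and 155 and 203 without naive IGG replicates 2 and 3. It was 777 and 650 without naive LAP2B replicate 3 and EpiLC LAP2B replicate 1. The largest called differences were at Tbxa2r (1.44), Psmb9 (1.41), Tle5 (1.38, a Groucho-related protein), Sf1 (1.37, a splicing factor) and Smim1 (1.36), all on the log2 scale; the last 3 were named for this after their values were seen. None of the 12 members with the highest LMNB1 ratio was called. LMNB1 and IGG were not tested against each other, since LMNB1 chose the members.

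**Figure D3:**
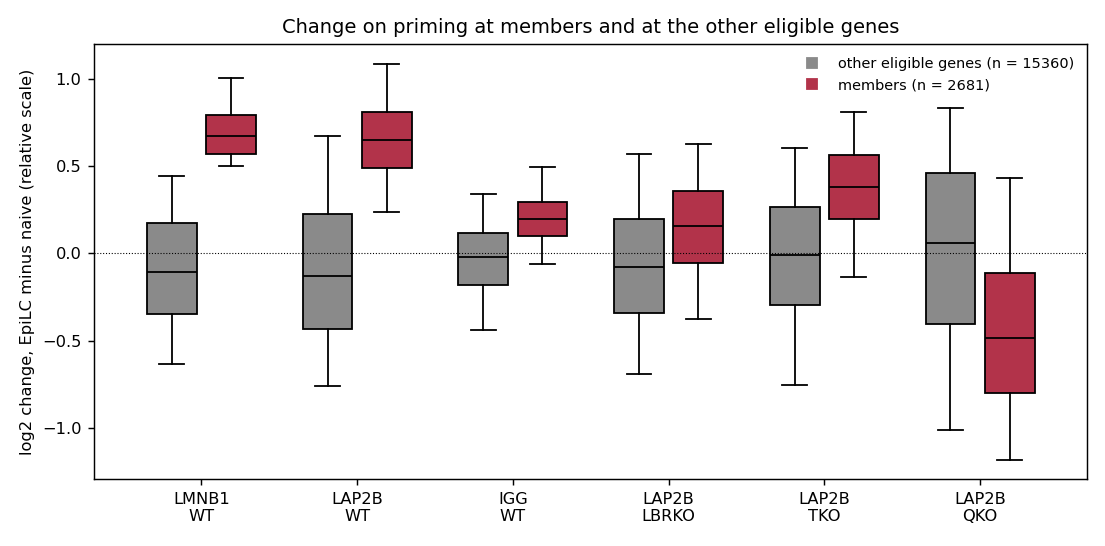
Log2 change from naive mES cells to EpiLCs (y axis, relative scale) in the 2681 members and the 15360 other eligible genes, for LMNB1, LAP2B and IGG in WT cells and LAP2B in the 3 mutants. Boxes span the quartiles with the median, and whiskers the 5th to 95th percentiles over genes. Members lie above the other genes in every WT panel, with medians of 0.67, 0.65 and 0.19, and below them in QKO at -0.49 against 0.06 (0.04 against 0.56 on the spike-in scale, not plotted).

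GC content moved with the gain. In 5 equal classes of eligible genes ranked by GC, the share of members rose from 0.166% (6 genes) in the lowest through 2.36%, 7.85% and 22.2% to 41.7% (1506 genes) in the highest. Across the 18039 eligible genes with coordinates, GC content and the log2 change had a Spearman correlation of 0.62 for LMNB1, 0.62 for LAP2B and 0.52 for IGG. Within the members it was 0.31, 0.26 and 0.24. Genes are not independent replicates, and neighbours share bins, so these are descriptions. Among eligible non-members the median log2 change also went from below to above 0 along the classes: from -0.31 to 0.26 in LMNB1, from -0.42 to 0.33 in LAP2B and from -0.18 to 0.14 in IGG. Within the highest class, members had a median LAP2B change of 0.70 with 88.6% called higher, against 0.33 and 43.2% of the other eligible genes there. In the middle class the figures were 0.59 and 83.7% against -0.05 and 16.8%. The part of GC content in the gain was not tested.

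**Figure D4:**
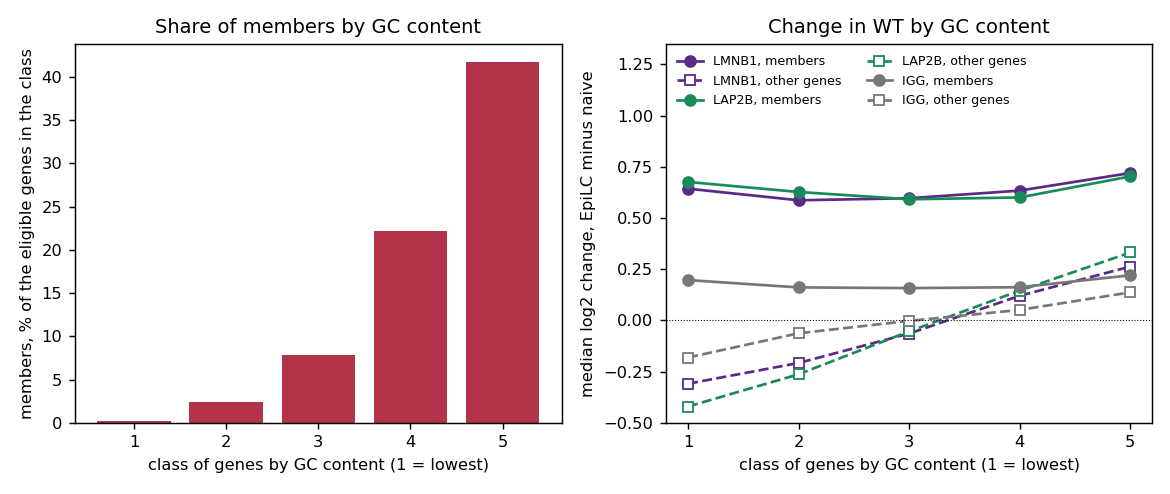
Left, members as a percentage of the eligible genes in each of 5 equal classes by GC content. Right, the median log2 change in WT (EpiLC minus naive, relative scale) of LMNB1, LAP2B and IGG in members (filled) and other eligible genes (open). The lowest class holds 6 members. Medians of members vary little along the axis, whereas those of the other genes go from below to above 0. For LMNB1 the rule keeps members above 0, since it asks for a ratio of at least 1.4.

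Of the 34 eligible genes on a list of naive pluripotency genes, 2 were members (5.88%, against 14.9% of all eligible genes), Klf2 and Stat3, and both were called higher in LAP2B. Of the other 32, 4 were called higher and 10 lower in LAP2B, where 17.2% and 29.3% of all eligible non-members were, and 7 of the list lost LMNB1 by the mirror rule, which took 1633 of the 18041 eligible genes. Klf2, a naive-state transcription factor, had LMNB1 values of 0.829, 0.920 and 1.06 in naive and 1.1, 1.66 and 1.19 in EpiLC libraries, the groups nearly touching. Stat3, which carries the LIF signal, had 4.79, 6.42 and 5.42 against 9.18, 7.02 and 8.11. Of 19 eligible primed epiblast genes, 2 were members (10.5%), near the share of all eligible genes. Dnmt3a, a de novo DNA methyltransferase, had 11.4, 14.2 and 13.1 against 21.0, 17.4 and 19.6 in LMNB1, and its LAP2B rose by 0.55 ± 0.10 on the log2 scale (adjusted p = 3.6e-05, limma). Lefty2, a Nodal antagonist, also gained LMNB1, but its LAP2B log2 change of 0.38 was not called (adjusted p = 0.143, limma).

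Lineage and germline genes were members at shares from below to above the 14.9% of all eligible genes. The LAP2B calls of these lists stand beside 87.0% of all members called higher, and 17.2% of eligible non-members called higher and 29.3% lower. Among 14 eligible genes of mesoderm and gastrulation 5 were members (Meox1, T, Evx1, Gata2 and Tbx5), of which 2, Gata2 and Tbx5, were called higher in LAP2B, while 2 of the other 9 were called lower. T, the mesoderm factor brachyury, had LMNB1 values of 0.961, 1.22 and 1.21 in naive and 1.71, 1.76 and 1.62 in EpiLC libraries. Its LAP2B values overlapped, at 1.47, 1.36 and 1.63 against 1.03, 1.69 and 1.32 (log2 change -0.16 ± 0.22, adjusted p = 0.611, limma). Among 22 primitive endoderm genes 4 were members (Gata4, Col4a1, Amn and Srgn), all called higher in LAP2B. Of the other 18 primitive endoderm genes 3 were called higher and 7 lower, and 3 lost LMNB1 by the mirror rule. Among 37 germline genes 5 were members (Tdrd1, Dpep3, Mei1, Nanos3 and Tex101), of which 4 were called, while of the other 32 germline genes 7 were called higher and 4 lower. None of 15 eligible genes of the 2-cell-like state was a member. Of 39 homeobox genes of the Hox clusters in the tables, 14 passed the minimum level and were eligible, a level that counts EpiLC values too, and 6 of these were members (Hoxa3, Hoxa9, Hoxa10, Hoxb3, Hoxb6 and Hoxc9), named after their values were seen. LAP2B was called higher in 5 of the 6 and also in 7 of the other 8 eligible Hox genes. They lie in 3 clusters and are not independent of each other.

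Of 52 eligible FGF and Wnt pathway genes 10 were members (19.2%), a share near the 14.9% of all eligible genes. All 10 were called higher in LAP2B, as were 87.0% of all members: the ligands Wnt4, Wnt7a, Wnt7b, Wnt8a, Wnt8b, Wnt10a, Fgf3 and Fgf18, the receptor Fgfr4, and Tcf7, a nuclear effector of Wnt. Among the 42 others, 10 were called higher and 9 lower. Fgfr4 had the highest LMNB1 ratio of them, 2.02, with 1.03, 2.03 and 1.62 in naive and 2.77, 3.27 and 3.43 in EpiLC libraries. Wnt4 was next at 2.00, with 1.87, 2.35 and 1.48 against 3.90, 3.44 and 4.09, and its LAP2B rose by 0.77 ± 0.15 on the log2 scale (adjusted p = 0.000113, limma). Of 59 ionotropic neurotransmitter receptor genes 10 were members (16.9%), 8 of them called higher in LAP2B. Of the other 49, 8 were called higher and 24 lower, where 17.2% and 29.3% of all eligible non-members were. The members included the NMDA receptor genes Grin1, Grin2d and Grin3b. Of 44 sodium and calcium channel genes 12 were members (27.3%, against 14.9% of all eligible genes), all called higher in LAP2B. Of the other 32 genes 3 were called higher and 9 lower. Shares of members in other gene families lay both below and above 14.9%, so this share is not read as particular to these channels.

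Of 20 eligible genes for the nuclear envelope itself 4 were members (20%), near the share of all eligible genes, and all 4 were called higher in LAP2B: Lmnb2 (lamin B2), Sun2 (which links the lamina to the cytoskeleton), Tmem201 (an INM protein) and Plpp7. Lmnb2 had LMNB1 values of 1.38, 2.24 and 2.09 in naive and 3.12, 3.52 and 3.14 in EpiLC libraries. Tmem201 was the one of them for which the LAP2B change minus the IGG change passed the test (difference 0.80 ± 0.19 on the log2 scale, adjusted p = 0.0145, limma), with an IGG log2 change of 0.00. Of the other 16, 4 were called higher and 7 lower in LAP2B, where 17.2% and 29.3% of all eligible non-members were. The 4 included Lemd2 and Ankle1 (LAP2B log2 changes of 1.23 and 0.65), named after their values were seen, whose LMNB1 ratios of 1.69 and 1.52 were above the limit but whose LMNB1 groups overlapped.

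On the relative scale, the stage change of LAP2B at members was smaller in LBRKO and TKO than in WT, and of the opposite sign in QKO. These within-mutant changes use no WT library except in the shared estimate of the spread. The paper reports moderately fewer surviving EpiLCs in LBRKO and TKO and a severe loss in QKO. Mutant EpiLC libraries therefore come from the cells that survived. Whether this shaped the mutant EpiLC values was not tested. In TKO, 1278 members (47.7%) were called higher on priming (limma), against 14.0% of all genes tested, and the median log2 change was 0.38. In LBRKO 492 (18.4%) were higher, against 7.87%, and 116 (4.33%) lower, against 10%, with a median of 0.16. Without naive replicate 1 the 492 became 172 and the median 0.07, and without EpiLC replicate 3 the 492 became 271. The 116 became 67 without naive replicate 3. In QKO 1580 members (58.9%) were lower, against 19.9%, and 195 (7.27%) higher, against 21.7%, with a median of -0.49. edgeR on recovered reads called 105 higher in place of the 195.

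The difference of each mutant's stage change from that of WT was tested directly (limma). All comparisons with WT share the WT libraries and are not independent of each other. Members were chosen by a rise of LMNB1 in WT, where LMNB1 and LAP2B stage changes had a Spearman correlation of 0.88 over eligible genes. The choice thus favours a difference below 0, and the shares of all genes tested are not matched for it. On the relative scale the difference was below 0 and called in 1146 members for LBRKO (42.7%, against 9.55% of all genes tested), in 432 for TKO (16.1%, against 3.81%) and in 2207 for QKO (82.3%, against 21.0%). It was above 0 and called in 4 (0.149%, against 10.2%), 7 (0.261%, against 5.77%) and 15 (0.559%, against 24.8%). Median differences were -0.51, -0.27 and -1.14 on the log2 scale. The number for TKO depended on single libraries: the 439 called in either direction became 248 without WT naive replicate 2, 271 without WT EpiLC replicate 3 and 258 without TKO EpiLC replicate 3, and the 7 became 36 without TKO naive replicate 2. The TKO median of -0.27 became -0.17 without WT naive replicate 2 and -0.51 with mean scaling. For LBRKO, the 1150 called became 763 without WT naive replicate 2.

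Set against WT at the same stage, relative LAP2B at naive members was higher in 1814 members in LBRKO (67.7%, against 28.9% of all genes tested), in 2201 in TKO (82.1%, against 21.8%) and in 2530 in QKO (94.4%, against 33.2%). It was lower in 31 (1.16%, against 27.6%), 10 (0.373%, against 27.5%) and 28 (1.04%, against 42.3%). The 31 became 18 and 54 without LBRKO naive replicates 1 and 2, and the 10 became 23 without TKO naive replicate 2. Members were low in naive WT LAP2B, at a median of the 17.5th percentile of the eligible genes. The choice of members thus favours mutant values above naive WT, and the shares of all genes tested are not matched for this low start. Median log2 differences were 0.51, 0.72 and 1.76. In EpiLCs they were -0.00, 0.42 and 0.59, with 211 members higher in LBRKO (7.87%, against 13.3%), 1478 in TKO (55.1%, against 8.68%) and 2147 in QKO (80.1%, against 18.3%). The 211 became 132 without WT EpiLC replicate 1. The 1482 called in either direction for TKO EpiLCs became 547 without WT EpiLC replicate 1, and 937 and 949 without TKO EpiLC replicates 1 and 2.

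Several of these directions depended on the scale. In the deposited spike-in values the median gene was 2.12 to 2.87 in naive and 2.12 to 3.20 in EpiLC WT LAP2B libraries, 1.26 to 2.10 and 1.72 to 3.20 in TKO, and 0.923 to 1.09 and 1.43 to 1.59 in QKO. Dividing by it, as the relative scale does, removes any change shared by all genes. With the spike-in scale, chosen for the mutants after seeing the data, the median stage change of members was 0.18 in LBRKO, 0.89 in TKO and 0.04 in QKO, against 0.04, 0.53 and 0.51 over all genes tested. In LBRKO 21 members were called higher (0.783%, against 0.851%; limma), in TKO 2186 (81.5%, against 33.7%) and in QKO 429 (16%, against 33.0%), where 172 were lower (6.42%, against 2.53%). The fall of LAP2B at QKO members was thus a fall relative to the median gene of the library.

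The stage change minus that of WT kept its direction on the spike-in scale in LBRKO and QKO and not in TKO. It was below 0 and called in 60 members for LBRKO (2.24%, against 0.538%) and in 1159 for QKO (43.2%, against 7.73%), while for TKO 1 member was above 0 and called (0.0373%, against 0.824%). Median differences were -0.66, -0.79 and 0.07 for LBRKO, QKO and TKO. The limits set above by the choice of members hold on this scale too. Against naive WT cells, 1672 members were higher in LBRKO (62.4%, against 28.2%), 266 in TKO (9.92%, against 2.43%) and 1340 in QKO (50%, against 10.2%), and 148 were lower in TKO (5.52%, against 47.4%) and 317 in QKO (11.8%, against 65.3%). The medians were 0.70, 0.11 and 0.54, against 0.21, -0.64 and -1.23 over all genes tested. In EpiLCs 45 members were higher in LBRKO (1.68%, against 5.54%), 3 lower in TKO (0.112%, against 9.32%) and 355 lower in QKO (13.2%, against 55.5%), with medians of 0.03, 0.16 and -0.28, against 0.04, -0.20 and -0.75.

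The level of members against other genes in the same library does not depend on the scale. By library, the median signal per kb of members relative to that of the other eligible genes was 0.494 to 0.673 in naive and 0.897 to 1.07 in EpiLC WT LAP2B libraries. In QKO it was 2.05 to 2.47 in naive and 1.44 to 1.56 in EpiLC libraries, and in the WT IGG libraries 1.08 to 1.46. The stage groups did not overlap in WT, TKO or QKO, with the higher group being the EpiLCs in WT and TKO and the naive cells in QKO, and they overlapped in LBRKO (0.680 to 0.918 against 0.911 to 0.958).

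**Figure D5:**
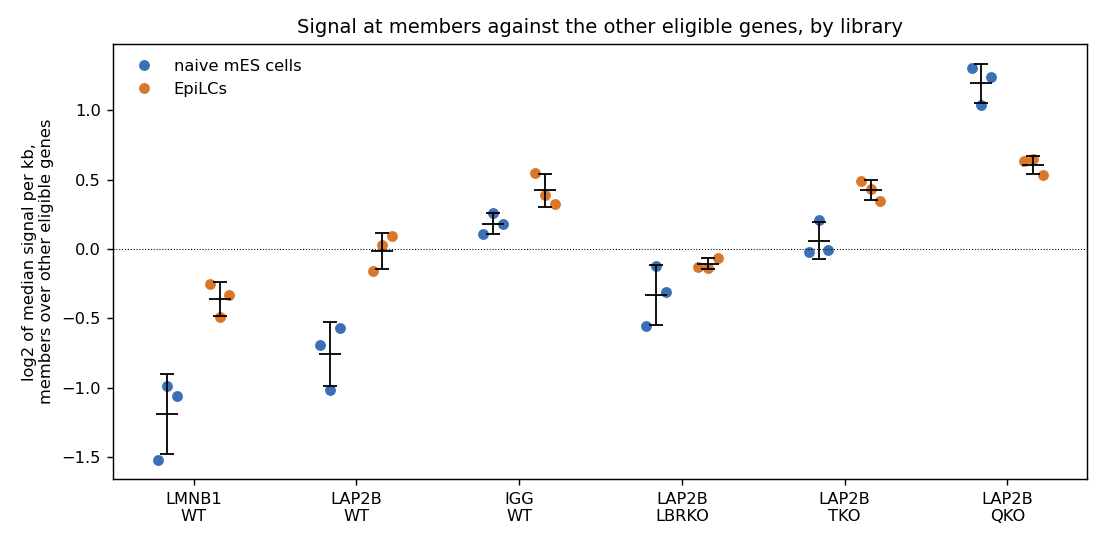
Log2 of the median signal per kb of members over that of the other eligible genes, for each of the 36 libraries (points), with the mean and SD of 3 libraries. Values below 0 mean less signal at members. LMNB1 lies below 0 at both stages in WT, LAP2B climbs to about the level of other genes in WT EpiLCs, and naive QKO LAP2B is the highest group.

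Between the stages, GC content moved with these values by group mean in WT, TKO and QKO, and not in LBRKO. The median signal per kb in the highest over that in the lowest GC class was 0.419 to 0.654 in naive WT LAP2B libraries, 0.887 to 1.29 in EpiLC WT LAP2B, 3.81 to 5.69 in naive QKO and 2.11 to 2.42 in EpiLC QKO. In IGG it was 1.41 to 1.65 in naive and 1.68 to 2.31 in EpiLC libraries. The part of GC content in the mutant differences was not tested.

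The largest single differences are given on the relative scale. Spns1, a lysosomal lipid transporter, had WT LAP2B values of 0.750, 1.14 and 0.962 in naive and 2.77, 2.20 and 2.09 in EpiLC libraries. In QKO it had 11.7, 8.22 and 9.22 against 4.02, 3.32 and 3.07, so that its stage change differed from that of WT by -2.68 ± 0.24 on the log2 scale (adjusted p = 1.67e-12, limma). Zbtb7a, a zinc finger repressor, had 33.1, 21.9 and 27.6 against 10.8, 9.30 and 9.12 in QKO (difference -2.62 ± 0.25, adjusted p = 8.97e-12, limma). In TKO the largest difference was at Daxx, a histone H3.3 chaperone, with 3.36, 3.58 and 3.24 in naive and 2.03, 2.64 and 1.96 in EpiLC libraries, against 1.31, 0.727 and 0.788, then 1.63, 1.93 and 2.59 in WT (difference -1.67 ± 0.27, adjusted p = 6.3e-05, limma). Tm7sf2 was next at -1.57. In LBRKO the leading genes were Mex3d (-1.67) and the polarity gene Pard6a (-1.63), whose LBRKO values were 2.18, 2.28 and 1.95 in naive and 1.63, 1.64 and 1.62 in EpiLC libraries.

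A few members went the other way on the relative scale. Htr1a, a serotonin receptor gene, was the member with the highest naive LMNB1 rank, the 93.2th percentile. Its LAP2B was flat in WT, at 2.94, 2.73 and 2.58 in naive and 2.48, 2.51 and 2.68 in EpiLC libraries. In LBRKO it was 1.16, 1.1 and 1.16 in naive cells and 2.77, 2.77 and 2.51 in EpiLCs, so the stage change exceeded that of WT by 1.26 ± 0.27 on the log2 scale (adjusted p = 0.000568, limma). Rnf26rt had the largest difference of this sign in LBRKO, 1.46. In TKO it was Rcvrn (1.29) and T (1.09), where T had 0.961, 1.65 and 0.970 in naive and 2.62, 2.06 and 2.29 in EpiLC libraries. Rcvrn (1.21) and Il36rn (1.15) led in QKO. Rnf26rt, Rcvrn, Il36rn and T had WT LAP2B changes below 0 (-0.53, -0.44, -0.30 and -0.16). Mex3d and Tm7sf2, at the other end, were among the largest WT rises. Each difference contains the WT change, so picking the largest favours genes with extreme values in the WT libraries.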

How the data were processed

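CUT&RUN libraries of WT, LBRKO, TKO and QKO cells, 36 in 12 groups of 3, were analysed from gene tables. The authors aligned pairs to GRCm39 with Bowtie2 2.3.5.1, kept primary proper pairs and removed duplicates with SAMtools 1.10, and deposited coverage signal as RPKM (deepTools) times a yeast spike-in factor, per gene. How bins were joined to genes is not given in the sources used here; from the values, a gene's signal is the sum over the 1 kb bins it touches. In every library 100% of values were whole multiples of a smallest step (tolerance 0.05), which gave back whole reads. Overlapping genes count the same reads, so sums only rank libraries by depth. Coordinates are from GENCODE M39; 78131 genes matched. H3K9me3 samples (2) and transposon tables were not used here.

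Values were set relative to the median gene of the library, and log2(value + 0.1) was fitted with limma 3.58.1 (group means, eBayes with trend, two-sided; all 24 LAP2B libraries in 1 model, LMNB1 and IGG in their own, LAP2B and IGG jointly for their difference). The lowest 10% of genes by mean over all libraries were left out, which left 70381, and the Benjamini-Hochberg adjustment ran over these, with calls at an adjusted p under 0.05. Python 3 and R 4.3.3 were used; fits were tested on simulated data. Alternatives were edgeR 4.0.16 on recovered reads, a replicate block, other pseudocounts, filters and scalings (for the mutants also the deposited spike-in scale, added after seeing the data), and each library left out. Members and gene lists were chosen with earlier results of these data known. Genes named are the 12 highest ratios, 3 either side of the limit, members on the lists, the 6 largest called LAP2B changes and 3 largest called IGG changes per direction, the 2 largest called mutant differences per direction, and the ends of the 4 largest runs; others are marked. A gene just outside the limit and a gene family are not reported here. No cell type markers apply to genomic DNA.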

Additional observations from a re-analysis of the deposited data

Results flagged for a closer look

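The change of LAP2B on priming differed between a mutant and WT, by a test of the difference itself (limma, adjusted over all genes), in 1150 members for LBRKO, 439 for TKO and 2222 for QKO, counting both directions on the relative scale. Called below 0 were 42.7%, 16.1% and 82.3% of members, against 9.55%, 3.81% and 21.0% of all genes tested. Above 0 were 0.149%, 0.261% and 0.559%, against 10.2%, 5.77% and 24.8%. On the spike-in scale the numbers were 60, 1 and 1166. All genes tested were there called below 0 in 0.538%, 0.00853% and 7.73% and above 0 in 0.0952%, 0.824% and 21.9%. The choice of members by a rise in WT favours differences below 0. Among the members named for the largest differences, the mutant's log2 stage change minus that of WT was -1.67 at Mex3d, -1.63 at Pard6a, 1.46 at Rnf26rt and 1.26 at Htr1a in LBRKO. In TKO it was -1.67 at Daxx, -1.57 at Tm7sf2, 1.29 at Rcvrn and 1.09 at T. In QKO it was -2.68 at Spns1, -2.62 at Zbtb7a, 1.21 at Rcvrn and 1.15 at Il36rn. The 3 mutants were set against the same 6 WT libraries, so these differences are not independent of each other. No explanation was tested.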

How the results depend on the processing

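The number of members, 2681, was 1188 when libraries were divided by the mean over genes, where the minimum level also changes its meaning, and 684 of these were among the 2681; with that minimum kept on the median scale, an alternative chosen after seeing the data, it was 3878, with 2623 of the members kept. It was 3087 on the spike-in scale and 1977 to 3475 with 1 library left out. The 2333 members called higher in WT LAP2B became 1226 of 1360 when a ratio of at least 1.6 was asked for, and 1911 to 2361 with 1 library left out; leaving out chromosomes 6, 8 and Y or taking 1 gene per shared set of bins kept the count within 1.5 times. On the spike-in scale 1871 became 658 without the filter on low values and 400 to 2183 with 1 library left out. The 15 IGG calls were 32 and 6 with pseudocounts of 0.5 and 0.02, 0 without the filter, 39 with mean scaling, 45 and 47 by edgeR (TMM and DESeq2 size factors), and 0 to 44 with 1 library left out. The 408 calls of LAP2B over IGG were 156 without the filter, 1021 with mean scaling and 62 to 777 with 1 library left out. The 439 calls of TKO against the WT change were 250 without the filter, 912 with mean scaling and 248 to 584 with 1 library left out. With 1 library left out, the stage calls in LBRKO were 276 to 796, those of LBRKO against the WT change 763 to 1431, and those of TKO against WT in EpiLCs 547 to 1375. With mean scaling the median log2 change of members in WT LAP2B was 0.86 in place of 0.65, and medians in LBRKO, TKO and QKO were 0.22, 0.36 and -0.43. With the spike-in scale, chosen for the mutants after seeing the data, the calls of the stage change in either direction numbered 23 (LBRKO), 2186 (TKO) and 601 (QKO, mostly higher, the opposite of the relative scale), those of the difference from the WT change 60, 1 (above 0, the opposite) and 1166, those against naive WT 1680, 414 and 1657, and those against WT EpiLCs 45, 4 and 359. The 359 in QKO were mostly lower, the opposite of the relative scale, as were 3 of the 4 in TKO, where the median of 0.16 kept its sign. The other counts of calls in either direction stayed within 1.5 times under the settings run. Some counts in a single direction moved more: the members lower against naive WT were 16, 3 and 15 with mean scaling in place of 31, 10 and 28, the 195 QKO members higher were 105 by edgeR, the 116 LBRKO members lower 68 with mean scaling, the 211 LBRKO EpiLC members higher 132 without WT EpiLC replicate 1, and the 7 positive TKO differences 1 with mean scaling and 36 without TKO naive replicate 2. The 492 LBRKO members higher were 322 without the filter, 172 without LBRKO naive replicate 1 and 271 without LBRKO EpiLC replicate 3. With the replicate number as a block, no count of calls moved by over 1.5 times (2331 in WT LAP2B, 1667 on the spike-in scale, 15 in IGG, 395 for LAP2B over IGG). Deviations of samples with the same number correlated at -0.25 to 0.07 over 18 pairs, so the numbers were not taken to pair the samples. edgeR with TMM or DESeq2 size factors was not run on the spike-in scale, which both would remove; the spike-in step was used as offset instead. Among 64 of the named members, those for which each setting was run, the WT LAP2B change kept its direction under every setting except at Htr1a (0.11 with mean scaling), T (0.0505 with mean scaling, and -0.32 to 0.00818 with 1 library left out) and Evx1 (-0.0386 to 0.17 with 1 library left out), none of which was called; 32 results lost their call and 7 gained one under some setting. The cause of these shifts was not tested. Depth limits short members most, since the lowest had 20 LMNB1 reads.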
